A study of Rattus norvegicus with 10 samples.

Results

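Genes that make, sense and inactivate leukotriene B4 (LTB4), 10 in all, were followed in the NTS, or nucleus tractus solitarii, where the nerve fibres that report blood pressure enter the brainstem. The genes were chosen by name, with earlier results of these data known. Every probe set whose platform annotation gives one of them as its only symbol was taken. That gave 10 probe sets, 1 for each gene, of 31042 on the array without the controls. The tissue came from male rats of 2 inbred strains aged 10 to 13 weeks, the spontaneously hypertensive rat (SHR) and its normotensive control, the Wistar-Kyoto rat (WKY), and no treatment is labelled. There were 5 SHR and 5 WKY arrays (1-colour Affymetrix arrays for the rat), which limits the precision of every value. The design text treats each array as an independent biological replicate, the sample descriptions name 5 animals for each sample, and p-values measure the spread between these arrays only. The title of the series names LTB4 and hypertension, and the comparison asks which genes of its metabolism differ between the strains.

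LTB4 is a lipid that attracts and activates leukocytes. It is made from arachidonic acid by 5-lipoxygenase (Alox5), which needs an activating protein (Alox5ap), and then by leukotriene A4 hydrolase (Lta4h). It acts mainly on the G protein-coupled receptor encoded by Ltb4r. It is inactivated by oxidation of its 12-hydroxyl group by Ptgr1, also called LTB4 12-hydroxydehydrogenase, and from its far end by omega-hydroxylases of the cytochrome P450 family 4F, whose products are oxidised further to a carboxylic acid by the fatty aldehyde dehydrogenase Aldh3a2.

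Signals are given in the linear units the authors scaled, with a trimmed mean near 100 on every array. Median signals lay between 44.2 and 49.8 on SHR arrays and between 39.6 and 45.7 on WKY arrays. The dissection was checked against markers. Of 11 probe sets of NTS neuron markers 10 were kept, among them that of Dbh, which makes noradrenaline (272 ± 28.7 in SHR, 334 ± 51.1 in WKY; SD, n = 5 each). The other, that of Tlx3, a transcription factor of NTS neurons, was dim. Of 9 probe sets of hindbrain genes 3 were dim and 6 were kept, the brightest that of Hoxa5 (982 ± 142 in SHR, 1046 ± 89.9 in WKY). All 7 probe sets of forebrain genes were dim. Of the 10 kept probe sets of NTS neuron markers 1 was lower in SHR, that of the neuropeptide gene Prlh (-0.42 on the log2 scale, limma adjusted p = 0.0379), a call that held without WKY 3 or WKY 4 and was lost without any other single array (limma adjusted p up to 0.0837). The Prlh call passed in 8 of the 22 alternative fits described below. Of the 6 kept probe sets of hindbrain markers 1 was lower, that of Hoxb3 (-0.35, limma adjusted p = 0.0164), and 5 were below 0. Over all kept probe sets 2.2% were lower in SHR and 46.0% were below 0. A probe set is called dim where fewer than 5 of the 10 arrays reached the 40th percentile of their own signals. Dim probe sets were left out of the test, and 18846 probe sets were kept. Of the 10 LTB4 probe sets 8 were kept. Alox5 and Ltb4r were dim.

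One of the 8 kept genes differed between the strains. Ptgr1, the gene that begins LTB4 breakdown by oxidation, was 1.72-fold lower in SHR, on signals with 16 added. The value rests on 1 probe set. Whether a sequence difference between the strains under its probes changes this signal was not tested. Of all kept probe sets 4.26% differed (limma, Benjamini-Hochberg adjusted p below 0.05), with 2.2% of all lower and 2.06% of all higher in SHR. The share among the LTB4 genes, 1 of 8, rests on a single gene. Ptgr1 was also the 1 gene of the 8 whose strains did not overlap, which held for 6.13% of kept probe sets. The synthesis genes Alox5ap and Lta4h, the omega-oxidation genes and Aldh3a2 did not pass the test.

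**Figure D1:**
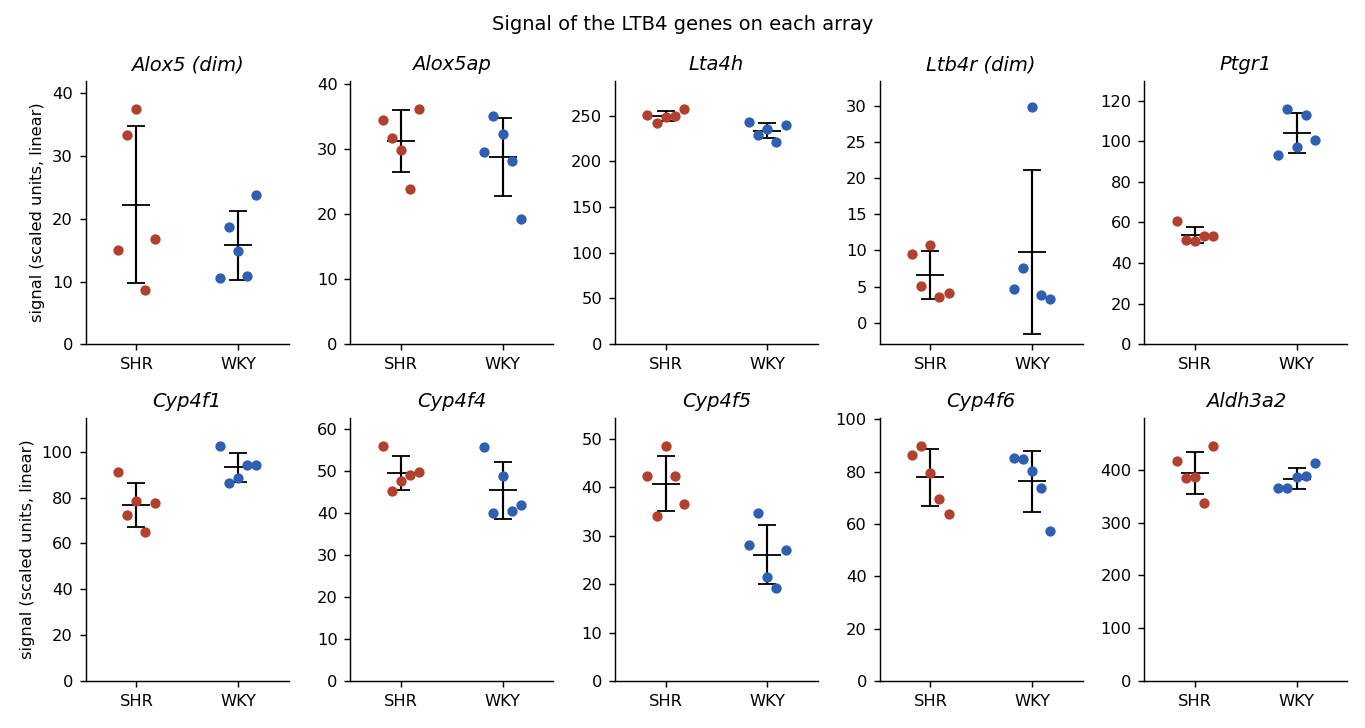
Signal of each LTB4 gene on every array (linear scaled units, 1 panel per gene with its own axis): points are arrays, horizontal bars are means and whiskers are 1 SD (n = 5 for each strain). The 5 SHR points of Ptgr1 lie between 50.9 and 60.6, below all 5 WKY points, and in the other panels the strains overlap.

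Ptgr1 had signals of 60.6, 51.2, 50.9, 53.4 and 53.2 on SHR arrays 1 to 5, against 93.2, 116, 97.3, 113 and 101 on WKY arrays 1 to 5. Every SHR array was below every WKY array, with a gap between the highest SHR value and the lowest WKY value that was wider than the whole range of either strain. Among kept probe sets 2.91% showed all SHR arrays below all WKY arrays. SHR was lower by a log2 difference of -0.78 ± 0.091 (SE; limma adjusted p = 5.29e-05 over all kept probe sets), with a 95% interval from -0.97 to -0.59. The median absolute log2 difference of kept probe sets was 0.12 with a median SE of 0.10. By p-value Ptgr1 stood at rank 55 of 18846, and by size at rank 62 of the 415 probe sets that were lower in SHR. The spread within a strain was small, with a coefficient of variation of 7.26% in SHR and 9.56% in WKY, against medians of 13.4% and 11.1% over kept probe sets.

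Ranks do not depend on the scaling of the arrays. Ranked within its own array among all probe sets, Ptgr1 stood between percentiles 50.7 and 57.7 in SHR and between 68.7 and 73.4 in WKY. It was thus near the middle of each SHR array and clearly above the middle of each WKY array. Lta4h, which completes LTB4 synthesis, stood between percentiles 87.8 and 88.1 in SHR and between 85.7 and 87.3 in WKY. These ranks did not overlap either, although the signals did. Percentiles that did not overlap were found for 5.93% of kept probe sets.

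The log2 ratio of Lta4h to Ptgr1 within an array was 1.80, 1.94, 1.98, 1.94 and 1.98 on the SHR arrays and 1.25, 0.89, 1.15, 0.88 and 1.13 on the WKY arrays. All 5 SHR arrays had the higher ratio, with a difference of 0.87. The ratio of Aldh3a2 to Ptgr1 differed by 0.81 (2.55 ± 0.14 in SHR, 1.74 ± 0.14 in WKY; SD, n = 5 each), and that of Lta4h to Aldh3a2 by 0.055 (-0.62 ± 0.13 in SHR, -0.68 ± 0.084 in WKY). Since probe sets bind with different strength, the size of such a ratio within a strain has no meaning and it is its shift between strains that is described. Because Ptgr1 itself had been seen to differ, these ratios carry no test.

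**Figure D2:**
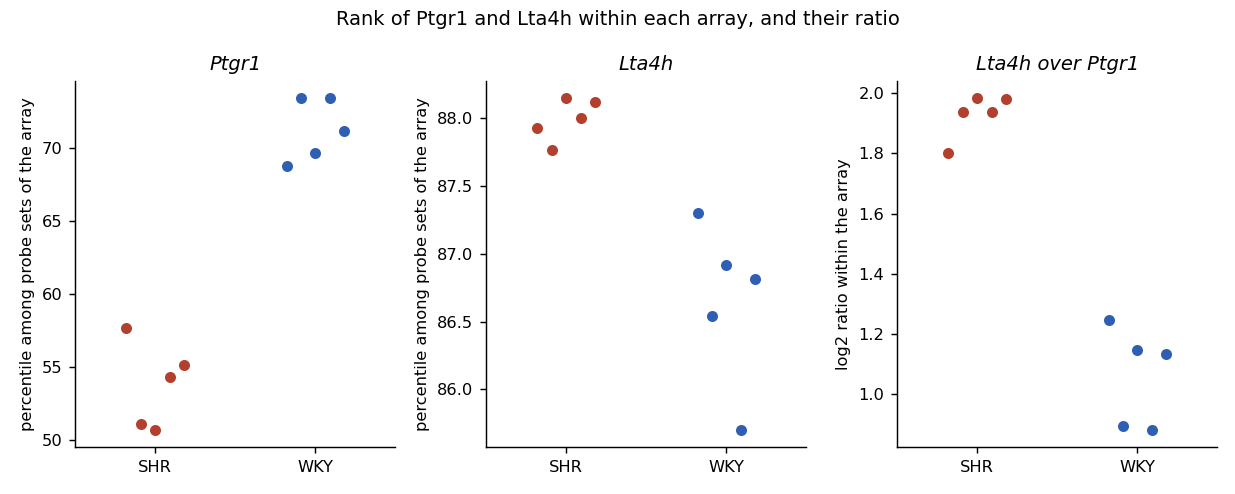
Percentile of Ptgr1 and of Lta4h among all probe sets of each array, and the log2 ratio of Lta4h to Ptgr1 within the array (points are arrays, 5 for each strain, axes do not start at 0). Ptgr1 ranks lie between 50.7 and 57.7 in SHR and between 68.7 and 73.4 in WKY, and the ratio is higher on all 5 SHR arrays.

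Alox5ap, whose membrane protein hands arachidonic acid to 5-lipoxygenase, was close to the limit of the filter: 2 SHR and 3 WKY arrays reached the 40th percentile. Its signals were 34.4, 31.7, 29.8, 23.9 and 36.1 in SHR and 29.5, 35.0, 32.3, 28.2 and 19.2 in WKY. The strains overlapped over nearly their whole range. The log2 difference was 0.079 ± 0.14 (limma adjusted p = 0.791), and its 95% interval, from -0.22 to 0.38, leaves room for a modest difference in either direction. It fell on the other side of 0 with quantile normalization, with the median-signal covariate and without WKY 5.

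Lta4h was measured most precisely of the kept LTB4 genes, with a coefficient of variation of 2.22% in SHR and 3.66% in WKY. Its signals were 251, 241, 249, 249.8 and 257 in SHR and 243, 229, 235, 222 and 239.6 in WKY. All SHR arrays except SHR 2 lay above all WKY arrays. A log2 difference of 0.089 ± 0.059 did not pass (limma adjusted p = 0.405). Its 95% interval ran from -0.035 to 0.21, so an increase or decrease of the size seen for Ptgr1 lies outside it.

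Alox5, the gene of 5-lipoxygenase, was dim. Its signals were 15.0, 33.4, 37.5, 8.63 and 16.8 in SHR and 10.6, 18.7, 14.8, 10.9 and 23.8 in WKY. SHR 2 and SHR 3 stood above the other 8 arrays, and these 2 also had the highest median signals of all arrays. Only SHR 3 reached the 40th percentile. In a fit of all probe sets without a filter, SHR minus WKY was 0.22 ± 0.21 (limma adjusted p = 0.602 over 31042 probe sets), with a 95% interval from -0.23 to 0.68. In that fit 2.18% of probe sets passed.

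Ltb4r, the gene of the high-affinity LTB4 receptor, was also dim. It had signals of 9.55, 5.09, 10.7, 3.49 and 4.03 in SHR and 4.62, 7.53, 29.9, 3.76 and 3.31 in WKY. WKY 3 stood far above the other 9 arrays and was still below the 40th percentile of its array. Without a filter the log2 difference was -0.12 ± 0.21 (limma adjusted p = 0.801; 95% interval -0.57 to 0.33). At such signals the strains could differ in either gene without the arrays showing it. In bulk tissue, fewer cells that carry a transcript and less transcript per cell cannot be told apart.

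**Figure D3:**
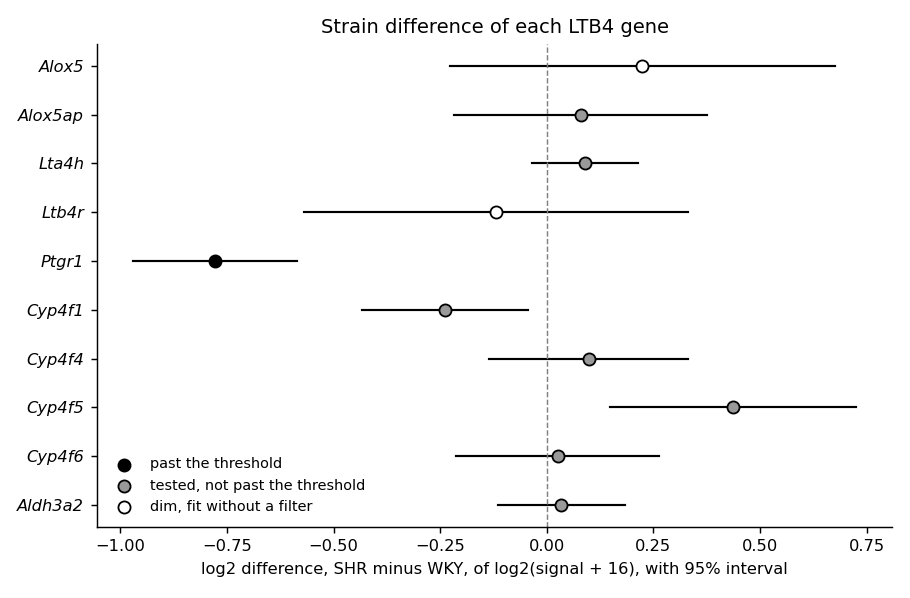
Log2 difference (SHR minus WKY) of each LTB4 gene with its 95% interval from limma, on log2(signal + 16), with the genes in the order synthesis, receptor, breakdown. Ptgr1 at -0.78 is the one black point, past the threshold. Grey points were tested and did not pass, and open points are the dim genes Alox5 and Ltb4r, taken from the fit without a filter.

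The 4 kept omega-hydroxylase genes, Cyp4f1, Cyp4f4, Cyp4f5 and Cyp4f6, lie in the same stretch of chromosome 7 in the RefSeq gene order. RefSeq promoters (GRCr8) were given for 7 of the 10 genes, and not for Ptgr1, Alox5ap and Cyp4f4. Cyp4f5 and Cyp4f1 had differences of opposite sign, the furthest from 0 among the family, and neither passed the test. For this reason their promoters are shown. Each is the 250 bases before the annotated start, from the Brown Norway reference and not from either strain, with the CCAAT box (CCAAT on either strand) in capitals.
Cyp4f5 (chr7:12194387-12194636, plus strand): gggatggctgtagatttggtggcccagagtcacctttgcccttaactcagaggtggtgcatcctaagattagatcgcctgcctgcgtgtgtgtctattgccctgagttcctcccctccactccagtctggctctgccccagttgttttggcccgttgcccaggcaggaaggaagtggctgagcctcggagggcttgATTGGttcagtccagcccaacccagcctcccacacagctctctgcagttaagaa
Cyp4f1 (chr7:12672554-12672803, minus strand): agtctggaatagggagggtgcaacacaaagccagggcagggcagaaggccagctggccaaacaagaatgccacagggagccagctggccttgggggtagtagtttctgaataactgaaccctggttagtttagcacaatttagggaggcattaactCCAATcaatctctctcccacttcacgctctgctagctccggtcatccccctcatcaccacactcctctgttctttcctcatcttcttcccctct
The first base of the box stood 54 bases before the start of Cyp4f5, on the other strand, and 94 bases before that of Cyp4f1. Over the full window, which adds 50 bases after the start, 5 of the 7 promoters held a CCAAT box, as did 37.5% of all 33469 promoters in the table. GGGCGG, the GC box, was in 4 of the 7 and in 33.1% of all. The core of the antioxidant response element, TGACNNNGC on either strand, was in 1 of the 7, Ltb4r, and in 12.1% of all.

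Cyp4f5 had signals of 42.3, 34.1, 48.6, 42.4 and 36.5 in SHR and 28.1, 34.8, 21.5, 19.1 and 27.1 in WKY. The strains overlapped through SHR 2 and WKY 2 alone. Of the arrays at or above the 40th percentile 4 were SHR and 2 were WKY. A log2 difference of 0.44 ± 0.14 was found, with a 95% interval from 0.15 to 0.73, and it did not pass (limma adjusted p = 0.0795). Its unadjusted p was 0.00528, and 21% of all kept probe sets had an unadjusted p below 0.05.

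Cyp4f1 had signals of 91.1, 72.3, 78.5, 64.7 and 77.5 in SHR and 102.5, 86.4, 88.5, 94.2 and 94.3 in WKY. SHR 1 was the one SHR array within the range of WKY. On the log2 scale SHR minus WKY was -0.24 ± 0.093 (limma adjusted p = 0.149; 95% interval -0.43 to -0.043). It did not pass, and the median of all kept probe sets was 0.016.

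Cyp4f4 had a median signal of 48.9 in SHR, with arrays between 45.2 and 55.9, and of 41.9 in WKY, with arrays between 40.04 and 55.7. Its log2 difference was 0.098 ± 0.11 (limma adjusted p = 0.649; 95% interval -0.14 to 0.33). Cyp4f6 had a median signal of 79.6 in SHR, with arrays between 63.7 and 89.8, and of 80.3 in WKY, with arrays between 57.3 and 85.1. Its log2 difference was 0.026 ± 0.11 (limma adjusted p = 0.925; 95% interval -0.21 to 0.26). Both differences changed sign with quantile normalization. For each of the 2 genes the range of one strain lay mostly within that of the other. Members of this family are similar in sequence, and whether probes of one bind transcripts of another was not tested. Between Cyp4f5 and Cyp4f6 the gene order holds 22 annotated genes with these included, 7 of them with a kept probe set, and 0 of these probe sets passed (in limma, 2 had an unadjusted p below 0.05, Cyp4f5 and Cyp4f1).

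Aldh3a2, the fatty aldehyde dehydrogenase that is mutated in human Sjögren-Larsson syndrome, had signals of 417, 386, 387, 338 and 445 in SHR and 366, 365, 387, 388 and 413 in WKY. SHR 4 was the lowest and SHR 5 the highest of the 10 arrays. On the log2 scale the strains differed by 0.034 ± 0.071 (limma adjusted p = 0.825), and the 95% interval ran from -0.12 to 0.18.

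**Figure D4:**
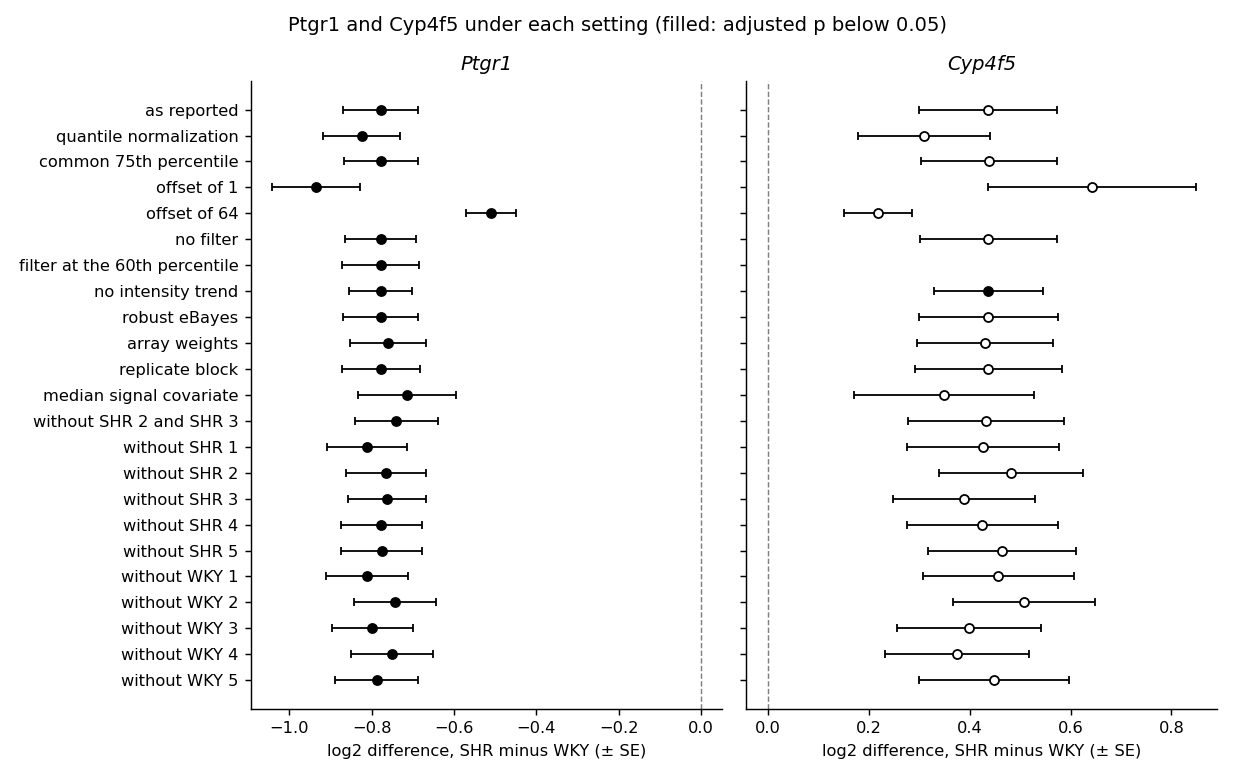
Log2 difference (SHR minus WKY, ± SE) of Ptgr1 and Cyp4f5 as reported and under each alternative setting, on separate axes, with filled points where the limma adjusted p is below 0.05. Ptgr1 passes in all, between -0.93 and -0.51, and Cyp4f5 passes in 1, without the intensity trend. Cyp4f5 has no value with the filter at the 60th percentile.

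The lower Ptgr1 passed in all 22 alternative fits, with limma adjusted p between 4.64e-05 and 0.00481. Its size depends on the offset added before the logarithm, and was -0.51 with an offset of 64 and -0.93 with an offset of 1. A covariate for the arrays' median signals gave -0.71. Cyp4f5 passed in 1 of 21 fits (limma adjusted p = 0.0413 without the intensity trend), and its log2 difference was 0.22 with an offset of 64. Cyp4f1, Cyp4f4, Cyp4f6, Alox5ap, Lta4h and Aldh3a2 passed in none of theirs.

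Summed signals of microglia and macrophage markers, taken over 1 kept probe set per gene, its brightest, were lower in SHR as Ptgr1 was. They lay between 2719 and 2859 in SHR and between 3279 and 3594 in WKY, over 14 marker genes with a kept probe set. Of 17 kept probe sets of this list 5 were lower in SHR and 0 higher, those of Aif1, Lyz2, C1qb, C1qa and Ctss, with a median log2 difference of -0.17. The other 12 did not pass. By sign 14 of the 17 were below 0 and 3 above, Cx3cr1 (0.19) and Cd74 (0.063) among these 3. Ctss, at 1008 in SHR and 1222 in WKY, was the brightest gene in the linear sums. Over all kept probe sets 2.2% were lower, 2.06% higher and 46.0% below 0. The Ctss call ended with the median-signal covariate (limma adjusted p = 0.243). The other 7 of the 24 probe sets of this list were dim, some with higher and some with lower means in SHR. Aif1 was lower on its brighter probe set (-0.52 ± 0.089), while its other kept probe set differed the opposite way, by 0.51 ± 0.18 (84.8 in SHR, 53.7 in WKY; limma adjusted p = 0.124). Neutrophils are leukocytes that LTB4 attracts, and all 12 probe sets of their markers were dim, the granule genes S100a8 and S100a9 included (2.12 and 13.0 in SHR, 1.49 and 9.18 in WKY, means of 5). Of the mast cell markers 10 of 12 probe sets were dim, and of the lymphocyte markers 12 of 15. All probe sets of the lymphocyte genes Cd3d, Cd3e, Cd3g and Cd8a were among the dim ones. Of the 3 kept lymphocyte probe sets 1 was higher in SHR, that of Cd4 (50.5 ± 6.12 in SHR, 30.3 ± 4.84 in WKY; log2 difference 0.52, limma adjusted p = 0.0185), a call lost without SHR 2 or without WKY 4 (limma adjusted p up to 0.0605). The Cd4 call was also lost without both SHR 2 and SHR 3, with quantile normalization and with the median-signal covariate (limma adjusted p up to 0.253). Astrocyte marker sums lay between 16016 and 19148 in SHR and between 15493 and 17232 in WKY, and 0 of 13 kept probe sets passed in limma (2 had an unadjusted p below 0.05). Endothelial sums lay between 1457 and 1599 in SHR and between 1459.6 and 1542 in WKY, with 1 of 12 kept probe sets lower, that of Vwf (limma adjusted p = 0.0141, and 0.0540 without WKY 5). The Vwf call was also lost without both SHR 2 and SHR 3 and with the median-signal covariate (limma adjusted p up to 0.206).

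Markers of other cells of the tissue also differed. Over all kept probe sets 2.2% were lower and 2.06% higher in SHR, and 46.0% had a log2 difference below 0. Of 14 kept oligodendrocyte probe sets 2 were lower in SHR and 0 higher, both of the myelin gene Mobp: one had 189 ± 16.2 in SHR and 529 ± 57.2 in WKY (SD, n = 5 each; log2 difference -1.41, limma adjusted p = 9.68e-09), the brightest differed by -0.34 (limma adjusted p = 0.0126), and the third by -0.022 and did not pass. Oligodendrocyte sums overlapped, between 8263 and 10210.3 in SHR and between 7821 and 10095 in WKY. Of 5 kept choroid plexus probe sets 2 were higher in SHR, those of Enpp2 (0.28, limma adjusted p = 0.0306) and Sostdc1 (0.47, limma adjusted p = 0.0377), and all 5 were above 0, with sums between 903 and 1049 in SHR and between 676 and 948 in WKY. Of 14 kept neuron probe sets 1 was higher, that of the synaptic gene Snap25 (0.33, limma adjusted p = 0.0480), and 11 were above 0, with sums between 13924 and 15462 in SHR and between 12367 and 14261 in WKY. The calls of these last 3 genes depended on single arrays and on the processing. Enpp2 held without SHR 2, SHR 5, WKY 1 or WKY 5, Sostdc1 without SHR 1 or SHR 5, and Snap25 without SHR 1, SHR 5 or WKY 3, and each was lost without any other one. All 3 calls were also lost in the fit without a filter and with the median-signal covariate. Enpp2 passed in 12 of 22 alternatives, Sostdc1 in 9 of 21 and Snap25 in 8 of 22. Of 12 kept meningeal probe sets 0 passed in limma (3 had an unadjusted p below 0.05). The part of any of these cell types in the difference of Ptgr1 was not tested.

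Phospholipases and related enzymes free the arachidonic acid from which LTB4 is made. Of the 18 kept probe sets for the release of arachidonic acid 0 passed in limma (4 had an unadjusted p below 0.05), with a median log2 difference of -0.023. The one furthest from 0 was that of Pla2g6, a calcium-independent phospholipase A2, at 44.9 ± 8.52 in SHR and 64.4 ± 5.28 in WKY (SD, n = 5 each; log2 difference -0.41 ± 0.12, limma adjusted p = 0.0551), and its other 2 probe sets were dim. Pla2g4a, the cytosolic phospholipase A2 that supplies 5-lipoxygenase, differed by -0.17 ± 0.10 (limma adjusted p = 0.359). Of the other lipoxygenases Alox12, Alox12e and Alox15 were dim, and Aloxe3, an isomerase best known from skin, differed by 0.36 ± 0.11 (limma adjusted p = 0.0821). Among genes that act on 5-lipoxygenase, 1 of 8 kept probe sets was lower, against 2.2% of all kept probe sets. It was that of Cotl1, an actin-binding protein that also binds 5-lipoxygenase. Cotl1 had 184, 181, 167, 168 and 167 in SHR and 255, 197, 204, 253 and 205 in WKY (log2 difference -0.33 ± 0.081; limma adjusted p = 0.0285). Its call ended without any 1 of SHR 3, SHR 4, WKY 1 or WKY 4 (limma adjusted p up to 0.0986), without both SHR 2 and SHR 3, with quantile normalization, without the intensity trend and with the median-signal covariate.

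The cysteinyl leukotriene branch takes leukotriene A4 away from LTB4. In it 0 of 8 kept probe sets passed in limma (1 had an unadjusted p below 0.05), with a median log2 difference of 0.0087. Ltc4s, its synthase, differed by 0.076 ± 0.11 (limma adjusted p = 0.737), and Ggt1, a gamma-glutamyltransferase and the furthest from 0, by 0.30 ± 0.13 (limma adjusted p = 0.184). The receptor genes Cysltr1 and Cysltr2 were dim, like Ltb4r. Both probe sets of other LTB4 receptors, Ltb4r2 and the nuclear receptor Ppara, were dim as well. The signals of these receptor genes allow no statement on a difference.

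Among reductases and dehydrogenases related to Ptgr1, 1 of 8 kept probe sets was higher and 0 lower in SHR. The shares of all kept probe sets were 2.06% and 2.2%. The higher one was Mecr, a mitochondrial enoyl reductase of fatty acid synthesis, at 57.8, 53.8, 51.0, 64.7 and 52.2 in SHR and 34.4, 38.7, 35.7, 42.3 and 40.03 in WKY (log2 difference 0.41 ± 0.11; limma adjusted p = 0.0386). Mecr stayed past the threshold without SHR 3 or without SHR 5 and missed it without any other single array (limma adjusted p up to 0.0851), and it missed it in 4 further fits. Ptgr2 and Ptgr3, the closest in function to Ptgr1, did not pass: the brighter probe set of Ptgr2 differed by -0.087 ± 0.067 (limma adjusted p = 0.485), and those of Ptgr3 by -0.18 ± 0.079 and 0.073 ± 0.11.

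In the rest of omega-oxidation 1 of 12 kept probe sets was higher and 0 lower in SHR, against 2.06% and 2.2% of all. Aldh1a1, a cytosolic aldehyde dehydrogenase best known for making retinoic acid, had signals of 135, 132, 133, 129.7 and 144 in SHR and 56.3, 49.1, 65.0, 51.6 and 49.1 in WKY. All SHR arrays were above all WKY arrays, which held for 3.22% of kept probe sets. SHR was higher by 1.11 ± 0.087 on the log2 scale (limma adjusted p = 3.86e-07), and Aldh1a1 passed in all 22 alternative fits. It is the one probe set of this gene on the array.

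Shortening of omega-oxidised LTB4 takes place in peroxisomes. Of 11 kept probe sets of that list 2 were lower and 0 higher in SHR, against 2.2% and 2.06% of all kept probe sets. Crot, which hands shortened chains to carnitine, had 128, 128, 176, 179 and 175 in SHR and 302, 231, 223, 272 and 284 in WKY. All SHR arrays were below all WKY arrays, as for 2.91% of kept probe sets. SHR minus WKY was -0.69 ± 0.11 for Crot on the log2 scale (limma adjusted p = 0.000989), and the call ended with the median-signal covariate alone (limma adjusted p = 0.0799). A dimmer kept probe set of Crot differed by -0.34 ± 0.11 and did not pass (limma adjusted p = 0.0890), again with no overlap. Scp2, a thiolase and lipid carrier, was lower on 1 probe set (-0.22 ± 0.057; limma adjusted p = 0.0390) and differed by 0.00039 ± 0.058 on its brighter one. Scp2 stayed past the threshold without SHR 1 or without SHR 4, missed it without any other single array (limma adjusted p up to 0.114), and passed in 7 of 22 alternatives.

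Ptgr1 is known in rat as a gene that dithiolethiones, activators of the transcription factor Nrf2, induce. Of 33 kept probe sets of Nrf2 and its targets 1 was lower and 0 higher, against 2.2% and 2.06% of all kept probe sets. The median log2 difference of the 33 was 0.031. The lower one was that of Gsta1, a glutathione transferase (-0.32 ± 0.063; limma adjusted p = 0.00698). It passed in 20 of 22 alternative fits, and missed the threshold with the median-signal covariate (limma adjusted p = 0.248) and without SHR 2 and SHR 3 (0.0557). Nfe2l2, which encodes Nrf2, differed by -0.24 ± 0.081 (limma adjusted p = 0.111), and the target genes Nqo1 and Hmox1 by -0.17 ± 0.088 and 0.033 ± 0.10.

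**Figure D5:**
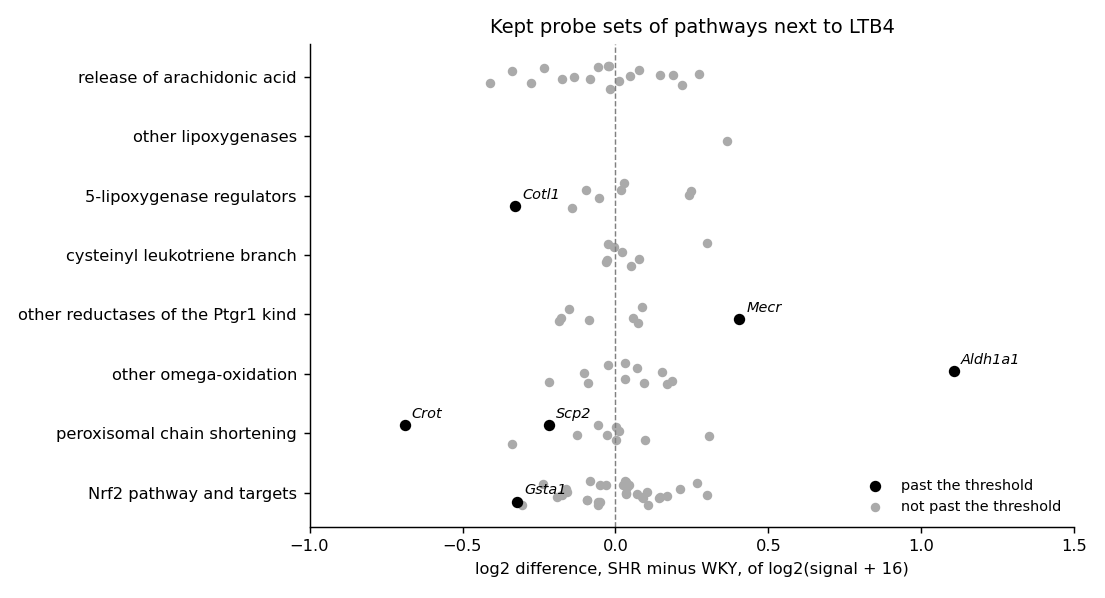
Log2 difference (SHR minus WKY) of every kept probe set of 8 lists of genes around the LTB4 pathway, 1 point per probe set, with those past the threshold in black and named. Aldh1a1 at 1.11 and Crot at -0.69 lie furthest from 0, and the other points cluster near it.

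The genes most like Ptgr1 were sought among all kept probe sets with 1 symbol. By Pearson correlation over the 10 arrays these were Tstd1, Vopp1, Snx10, Retsat and Cfdp1, with r between 0.973 and 0.985. Since Ptgr1 separated the strains, a strain difference of genes chosen this way follows from the choice and adds no support. All 5 were lower in SHR, from -1.37 ± 0.10 (limma adjusted p = 2.02e-07) for Tstd1 to -0.30 ± 0.057 (limma adjusted p = 0.00582) for Cfdp1. Within the strains, over deviations from the strain means, their r with Ptgr1 was between 0.31 and 0.84. By the correlation of deviations from the strain means they were Tdrp, Bbox1, Ssh2, Gbx2 and Slc2a1, with r between 0.898 and 0.967, and none of these 5 passed in limma (lowest adjusted p = 0.587). The 2 sets share no gene. All points share their 10 arrays, and these are the highest of the correlations with all kept probe sets that have 1 symbol.

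Of the 10 annotated genes next to Ptgr1 in the RefSeq gene order, 2 had kept probe sets, Ecpas and Gng10. Of their 6 kept probe sets 1 was higher and 0 lower in SHR: Ecpas, a proteasome adaptor, was higher on 1 of its 5 kept probe sets (51.7 ± 9.14 in SHR, 30.5 ± 8.17 in WKY; log2 difference 0.55, limma adjusted p = 0.0412), while its brightest differed by -0.28 and did not pass (limma adjusted p = 0.109). The higher call passed in 9 of 21 alternatives: it was lost in the fit without a filter (limma adjusted p = 0.0798) and, with 1 array left out, held without SHR 5, WKY 1 or WKY 3 alone (limma adjusted p up to 0.104). Gng10 differed by -0.15 ± 0.066 (limma adjusted p = 0.189). The shares of all kept probe sets were 2.06% higher and 2.2% lower in SHR. Among the 10 nearest protein-coding genes, a choice made after the values were seen, Ugcg, the ceramide glucosyltransferase gene, was lower (93.6 in SHR, 121 in WKY; log2 difference -0.32, limma adjusted p = 0.0233). The call of Ugcg was lost without any 1 of SHR 1, SHR 4, WKY 2, WKY 4 or WKY 5 (limma adjusted p up to 0.0809) and with the median-signal covariate.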

How the data were processed

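Total RNA of the NTS was amplified (MessageAmp II) and hybridised to 1-colour Affymetrix arrays, as the labels' protocols say. Each value deposited by the authors is a linear intensity, 1 for every probe set on every array. GCOS 1.2 is named in the submitters' processing notes, and the sources used here do not give its background step or its detection calls. The values show that each array had been scaled to a mean of 100 after trimming 2% at each end.

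The 57 control probe sets were left out. Without further normalization, log2(signal + 16) was fitted in limma 3.58.1 (R 4.3.3) with strain as the one term and eBayes with an intensity trend, for probe sets with at least 5 of 10 arrays at or above the array's 40th percentile. Log2 differences are on this scale, which understates changes of low signals. P-values were adjusted over all kept probe sets (Benjamini-Hochberg, threshold 0.05). The model was run on simulated data with planted differences and independent normal noise, without the filter. That simulation holds no spread shared between arrays or probe sets, and so does not cover it. Names come from the platform annotation, and old symbols were replaced by those RefSeq (GRCr8) gives for the same Entrez gene. Positions are printed for promoters only.

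The LTB4 genes, the other lists and the markers were chosen with earlier results of these data known. By rule, named genes were all LTB4 probe sets, list members past the threshold or else the furthest from 0, the 5 probe sets most like Ptgr1 by each measure, and its 5 annotated neighbours on each side. Pla2g4a, Ltc4s, Ptgr2, Ptgr3, Nfe2l2, Nqo1, Hmox1, Gng10, Ugcg, second probe sets, dim list members and markers were named after their values were seen. Alternatives were an offset of 1 or 64, quantile normalization, scaling to the 75th percentile, a filter at the 60th percentile or none, eBayes robust or without the trend, array weights, a replicate block, a median-signal covariate, and leaving out arrays.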

Additional observations from a re-analysis of the deposited data

Results flagged for a closer look

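Dixon's gap test was applied to the 5 arrays of each strain for each LTB4 gene, 20 groups in all, of which chance flags about 1 in 20, and 2 held an array far from the rest. For Ltb4r it was WKY 3, at a signal of 29.9 against 7.53 for the next WKY array (gap over range 0.841). For Ptgr1 it was SHR 1, at 60.6 against 53.4 for the next SHR array (gap over range 0.742). SHR 1 was nonetheless below all WKY arrays, and without it the log2 difference of Ptgr1 was -0.81.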

How the results depend on the processing

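Ptgr1 kept its direction and passed in all 22 alternatives, with a log2 difference between -0.81 and -0.74 when 1 array was left out. The number of probe sets past the threshold was 1214 with the replicate block, 206 with the median-signal covariate and 495 without SHR 2 and SHR 3, against 803. With 1 array left out it ran from 450 to 945, and it fell by more than 1.5 times without SHR 2 (510), WKY 4 (452) or WKY 5 (450). Of the LTB4 genes 1 passed in each alternative except without the intensity trend, where 2 did, Ptgr1 and Cyp4f5 (0.44). Small differences changed sign without passing. With quantile normalization they were -0.054 for Alox5ap, -0.0035 for Cyp4f4 and -0.021 for Cyp4f6, with the covariate -0.041 for Alox5ap and -0.21 for Cyp4f6, and without SHR 2 and SHR 3 -0.047 for Cyp4f6. With 1 array left out they ran from -0.0092 to 0.086 for Aldh3a2, from -0.0053 to 0.14 for Alox5ap and from -0.055 to 0.082 for Cyp4f6. The cause was not tested. Same-numbered arrays of the strains had deviations that correlated at 0.038 to 0.28, above 0.1 in 3 of 5 pairs, and 3 of 5 SHR arrays correlated best with their own number. Whether same-numbered arrays were handled as a set was not tested. The labels give no animal, litter or day behind the numbers and not every pair was above 0.1, and the block was kept as an alternative. With the replicate block Ptgr1 differed by -0.78 (limma adjusted p = 0.000504). Where too few arrays reached the filter a gene had no value, so that Alox5ap had values in 16 of the 22 alternatives and Cyp4f4 and Cyp4f5 in 21. No detection calls were used, so dim signals were not judged against background.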
